A study of Mus musculus with 8 samples.

Results

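The 9 genes described here encode regulators of G protein signalling (RGS proteins) in mouse A20 B lymphoma cells: Rgs1, Rgs2, Rgs3, Rgs10, Rgs13, Rgs14, Rgs16, Rgs18 and Rgs19. They were found by gene name among the mouse probes of the array, which gave 15 probes of 55681, and were selected on their processed signal over the 4 lines of the study. Differences between the lines in these 9 genes are therefore given as a description, with no test. Of the 15 probes, 12 passed a filter on dim probes, which kept a probe if any 1 of the lines had it well above background on its 2 arrays. These 12 covered 8 of the 9 genes, of 19973 genes tested in all. Rgs1 did not pass.

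RGS proteins bind the GTP-loaded alpha subunit of a heterotrimeric G protein and speed up its GTPase, so that the signal of the receptor above it ends sooner. In B cells the receptors concerned include those for chemokines and for lipid mediators, which guide cells within lymphoid tissue, and Rgs1 and Rgs13 are known as brakes on the response of germinal centre B cells to chemokines. The genes fall into families by the rest of the protein. Rgs1, Rgs2, Rgs3, Rgs13, Rgs16 and Rgs18 belong to the R4 family, Rgs10 and Rgs14 to the R12 family, and Rgs19 to the RZ family.

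The study set 2 clones of A20, a B lymphoma line of mature type, stably transfected with membrane IgE against 2 kinds of control. The groups were IgE clone 18 (2 arrays), IgE clone 41 (2 arrays), a stable transfectant carrying membrane IgM (2 arrays) and untransfected A20 (2 arrays), all grown in the same medium, with no treatment given in the labels. Each IgE line is 1 clone, so a clone's own features and the effect of IgE cannot be told apart within a line. Nothing in the labels tells whether a line's 2 arrays stem from different cultures, so the replicate spread behind every p-value may be technical. All 10 markers of mature B cells were well above background on every array, and their summed signal was 376 to 423 times the array's 75th percentile in the IgE lines, against 376 to 492 times in the control lines. The 10 germinal centre markers were also above background on every array. Over 19952 genes, the log2 difference between a line's 2 arrays had an SD of 0.42 in clone 18, 0.47 in clone 41, 0.50 in the IgM line and 0.74 in untransfected cells. The arrays measured bulk RNA, in which fewer cells with a transcript and less of it per cell cannot be told apart. No probe of the 9 genes was saturated or left out on any array.

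Values are log2 signals relative to the array's 75th percentile, so that 0 is the 75th percentile and 1 unit is a 2-fold step. Levels of different genes are not compared, since each probe has its own response. A gene was called changed in a comparison when limma's adjusted p was under 0.05 and the change at least 2-fold. Under this rule 8.99% of the genes tested were called between the IgE lines and the control lines, 3.4% higher and 5.59% lower, and 3 of the 8 RGS genes met it (Rgs13 higher, Rgs2 and Rgs16 lower). Because the RGS genes were chosen by these same signals, nothing is read from that count or from those of the single pairs of lines. Their median difference between IgE and control lines was -0.47, against 0.04 over all genes, and for the same reason nothing is read from it.

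**Figure D1:**
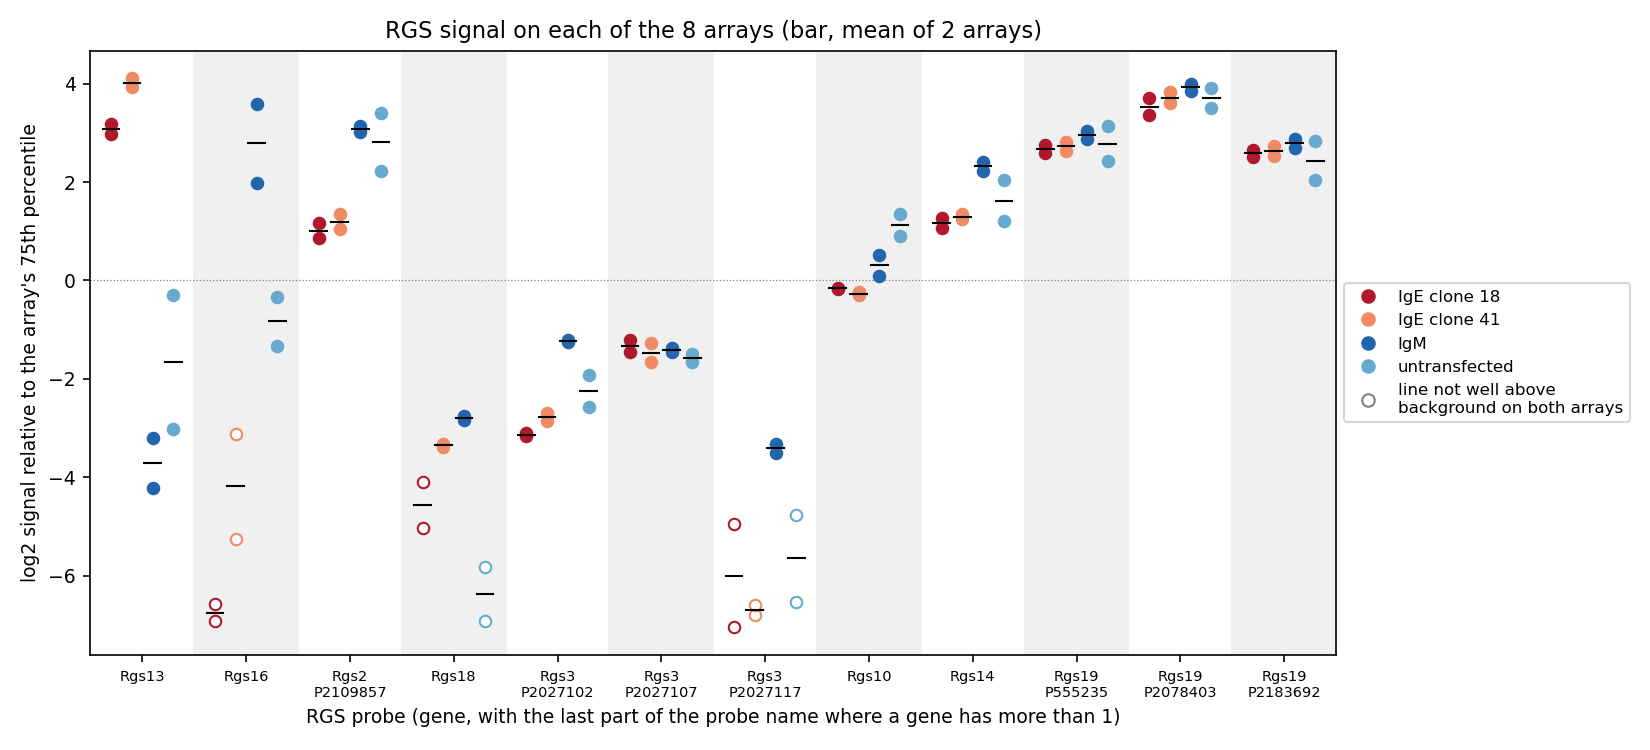
The log2 signal, relative to the array's 75th percentile, of the 12 RGS probes that passed the filter (x axis) on each of the 8 arrays (points) with the mean of each line (bars). Open points mark a line with fewer than 2 arrays well above background. The 4 IgE arrays of Rgs13 lie between 2.98 and 4.11 and its 4 control arrays between -4.22 and -0.29, while IgE and control arrays overlap in the 3 Rgs19 probes.

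Rgs13, which acts on Gi and Gq alpha subunits and is known from germinal centre B cells and mast cells, was higher in both IgE clones than in either control line. Its probe (A_55_P2078370, mm9 chromosome 1, 145985824 to 145985883, minus strand) read 2.98 and 3.19 in clone 18 and 4.11 and 3.94 in clone 41, against -3.21 and -4.22 in the IgM line and -0.29 and -3.02 in untransfected cells. All 4 IgE arrays lay above all 4 control arrays, and the probe was well above background on every array. The IgE lines averaged 3.55 ± 0.55 and the control lines -2.68 ± 1.68 (SD, n = 4 arrays each), a difference of 6.24 ± 0.57 (SE), or 75.5-fold. Against untransfected cells the difference was 4.74 ± 0.81 in clone 18 and 5.68 ± 0.81 in clone 41. Against the IgM line it was 6.80 ± 0.81 in clone 18 and 7.74 ± 0.81 in clone 41. Clone 41 exceeded clone 18 by 0.94 ± 0.81, with an SE that pools the spread of all 4 lines. The arrays of the clones did not overlap, their SDs were 0.12 in clone 41 and 0.14 in clone 18 (n = 2 each), and the difference was 0.84 to 1.04 in the alternatives.

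The size of the Rgs13 difference from untransfected cells rested on which untransfected array was used. Replicate 1 of that line had the highest control signal, at -0.29, and replicate 2 read -3.02. Without untransfected replicate 1 the difference was 6.11 in clone 18 and 7.05 in clone 41, and without untransfected replicate 2 it was 3.37 in clone 18 and 4.31 in clone 41. The IgM line was below untransfected cells by 2.06 ± 0.81, a difference that came to -0.69 without untransfected replicate 1 and to -3.42 without replicate 2. Both control lines were lower than both clones by at least 3.37 units under each of these choices, and the IgM line was the lower control in all 17 alternatives.

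Rgs16, which acts on Gi and Gq alpha subunits and is induced by activation in lymphocytes, had the opposite pattern. Its probe (A_51_P249286, chromosome 1, 155592244 to 155592303, plus strand) read -6.58 and -6.91 in clone 18 and -5.26 and -3.11 in clone 41, against 1.99 and 3.60 in the IgM line and -1.33 and -0.33 in untransfected cells. All 4 IgE arrays lay below all 4 control arrays, and of the IgE arrays only replicate 2 of clone 41 was well above background. The IgE lines averaged -5.47 ± 1.72 and the control lines 0.98 ± 2.23 (SD, n = 4 arrays each), a fitted difference of -6.45 ± 0.57 (SE) whose size is uncertain, since 3 of the 4 IgE arrays were not above background. Since clone 18 was not above background on either array, its difference is a bound, which holds only for the processed signal used here. On that signal Rgs16 in clone 18 was at least 186-fold lower than in the IgM line (-7.54 in log2). It was at least 15.1-fold lower than in untransfected cells (-3.91 in log2). With normexp background correction, which models the background and adds an offset, its fitted log2 differences were smaller than these bounds, -5.62 from the IgM line and -2.27 from untransfected cells, and with the authors' deposited table they were -6.53 and -3.12. In clone 41, where replicate 1 was not above background, the fitted difference was -6.98 ± 0.80 from the IgM line and -3.36 ± 0.80 from untransfected cells.

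The IgM line held the highest Rgs16 signal of the 4 lines, 3.62 ± 0.80 above untransfected cells, and its 2 arrays lay above both untransfected arrays. The clone 41 value depended on its replicates. Without clone 41 replicate 1 the difference was -5.90 from the IgM line and -2.28 from untransfected cells, and without replicate 2 it was -8.05 and -4.43. The normexp correction gave -3.73 between the IgE and control lines, and the authors' deposited table gave -4.38, both in the same direction.

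Rgs2, which prefers Gq alpha subunits and also acts in other G protein pathways, was lower in both IgE clones. The measured probe (A_55_P2109857, chromosome 1, 145848830 to 145848889, minus strand) read 0.87 and 1.17 in clone 18 and 1.05 and 1.35 in clone 41, against 3.02 and 3.14 in the IgM line and 3.40 and 2.23 in untransfected cells. The 4 IgE arrays did not overlap with the 4 control arrays. The IgE lines averaged 1.11 ± 0.20 and the control lines 2.95 ± 0.50 (SD, n = 4 arrays each), a difference of -1.84 ± 0.26 (SE), or 3.58-fold lower. The difference from the IgM line was -2.06 ± 0.37 in clone 18 and -1.88 ± 0.37 in clone 41. From untransfected cells it was -1.80 ± 0.37 in clone 18 and -1.62 ± 0.37 in clone 41, and without untransfected replicate 1 these came to -1.21 and -1.03. A second Rgs2 probe (A_52_P378968), which starts 1.6 kb away, was not well above background on any array, so the Rgs2 values rest on 1 probe.

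Rgs13 and Rgs2 are neighbours. Their probes start 137 kb apart in a chromosome 1 cluster that also holds Rgs1, 106 kb beyond Rgs13, and Rgs18, a further 508 kb away. Rgs16 lies on the same chromosome, 8992 kb from Rgs18. Promoter sequences were found for 6 of the 9 genes in RefSeq (GRCm38.p6), and those of Rgs13, Rgs16 and Rgs2 are shown because these 3 genes met the call rule between IgE and control lines. Each runs from 250 bases before to 50 bases after the start of the gene, 5′ to 3′ on the strand of the gene, with motif matches in capitals. Both strands were searched for 6 motifs. TATAAA, the TATA box, was found in 13.62% of all promoter windows. The core of the cyclic AMP response element, TGACGT, was found in 7.51%. The AP-1 motif, TGANTCA, was found in 7.81%. GGANTTTCC, of NF-kappa B type, was found in 1.25%. TTCNNNGAA, of STAT type, was found in 8.3%. The E-box CACGTG was found in 7.15%.
Rgs13, chr1:144177323-144177622, minus strand: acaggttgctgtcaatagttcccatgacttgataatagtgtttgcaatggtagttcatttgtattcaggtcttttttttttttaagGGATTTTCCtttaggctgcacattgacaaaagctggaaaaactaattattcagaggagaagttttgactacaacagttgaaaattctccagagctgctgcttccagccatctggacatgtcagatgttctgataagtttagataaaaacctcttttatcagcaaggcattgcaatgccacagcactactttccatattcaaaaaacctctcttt
Rgs16, chr1:153740103-153740402, plus strand: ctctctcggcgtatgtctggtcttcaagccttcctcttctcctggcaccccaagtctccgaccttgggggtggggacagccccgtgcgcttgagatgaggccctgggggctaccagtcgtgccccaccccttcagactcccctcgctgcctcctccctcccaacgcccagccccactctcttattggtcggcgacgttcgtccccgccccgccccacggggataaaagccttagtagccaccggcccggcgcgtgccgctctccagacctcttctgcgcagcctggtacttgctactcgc
Rgs2, chr1:144004100-144004399, minus strand: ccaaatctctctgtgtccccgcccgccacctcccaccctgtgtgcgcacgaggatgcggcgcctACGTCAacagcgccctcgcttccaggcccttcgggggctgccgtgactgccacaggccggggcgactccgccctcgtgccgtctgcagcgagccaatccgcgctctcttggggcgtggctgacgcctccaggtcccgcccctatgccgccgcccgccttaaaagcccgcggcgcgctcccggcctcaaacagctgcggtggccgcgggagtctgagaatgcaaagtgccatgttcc

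The Rgs13 promoter window was AT-rich, with 36.7% G and C and 0 CpG dinucleotides. The other 2 windows were GC-rich, with 66.0% G and C and 22 CpG in Rgs16 and 70.0% and 33 CpG in Rgs2. The Rgs13 window held 1 match to GGANTTTCC, at position -164 from the start, a motif in 1.25% of all 32851 windows. The Rgs2 window held 1 match to TGACGT on the reverse strand, at position -186. None of the 6 motifs matched in the Rgs16 window. A match is a string of letters and was not tested for function.

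Rgs18, an R4 family member known chiefly from platelets and other blood cells, differed more between the control lines than between the IgE and control sides. Its probe (A_52_P541161, chromosome 1, 146600137 to 146600196, minus strand) read -5.04 and -4.10 in clone 18 and -3.37 and -3.33 in clone 41, against -2.74 and -2.83 in the IgM line and -5.83 and -6.93 in untransfected cells. Untransfected cells were not well above background on either array, nor was replicate 1 of clone 18. The IgM line was the highest line. On the processed signal it was at least 4.12-fold above untransfected cells (2.04 in log2), and clone 41 was at least 2.79-fold above them (1.48). The fitted log2 differences were smaller with normexp (1.00 in the IgM line and 0.89 in clone 41) and with the authors' deposited table (1.37 and 1.13). Clone 18 was at least 1.20-fold above untransfected cells, and its difference from the IgM line was -1.78 ± 0.42, or -0.46 with normexp and -0.79 with the deposited table of the authors. The IgE and control arrays overlapped, and the difference between those sides was 0.63 ± 0.30. Of 8 platelet and megakaryocyte markers, Pf4, Ppbp, Gp1ba and Gp6 were above background on no array, and the summed signal of the list was 0.158 to 0.190 in the IgE lines and 0.156 to 0.338 in the control lines (in units of the array's 75th percentile).

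Rgs3, a larger R4 protein with several isoforms, gave different patterns with its 4 probes. The probe with the highest signal (A_55_P2027107, chromosome 4, 62363208 to 62363267, plus strand) read -1.21 and -1.45 in clone 18 and -1.27 and -1.66 in clone 41, against -1.46 and -1.37 in the IgM line and -1.49 and -1.65 in untransfected cells. The sides overlapped, and the IgE lines exceeded the control lines by 0.10 ± 0.14 (SE).

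A second Rgs3 probe, A_55_P2027102 (62363993 to 62364052), read -3.10 and -3.17 in clone 18 and -2.85 and -2.68 in clone 41, against -1.24 and -1.20 in the IgM line and -2.58 and -1.91 in untransfected cells. Here the IgE arrays lay below all control arrays, by -1.21 ± 0.17 in the mean, and the IgM line was above untransfected cells by 1.02 ± 0.24. The third, A_55_P2027117 (62320777 to 62320836), was well above background in the IgM line alone, at -3.33 and -3.50. There it was at least 2.51-fold above clone 18, 2.37-fold above clone 41 and 2.55-fold above untransfected cells. These bounds hold for the processed signal, and some alternatives gave smaller fitted differences. The fourth, A_55_P2027112, was above background on no array. The array files describe the first 2 probes as Rgs3 transcript variant 2 and the third as variant 1. Which transcripts the cells made was not tested.

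The most alike pair of RGS probes is shown because 1 of them separated the sides and the other did not. Among the 105 pairs of the 15 probes, each 60 bases long, the Rgs2 and Rgs3 probes below had the most identical bases without gaps, 35 of 59. The next pair had 27, and the median was 20. The longest run shared by any pair was 9 bases. Identical bases are in capitals, and both are written 5′ to 3′ as in the array files.
Rgs2, A_55_P2109857: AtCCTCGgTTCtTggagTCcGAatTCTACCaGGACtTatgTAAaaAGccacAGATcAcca
Rgs3, A_55_P2027107: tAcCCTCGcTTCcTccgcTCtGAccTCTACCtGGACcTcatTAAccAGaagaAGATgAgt
The Rgs2 probe separated the IgE from the control arrays and the Rgs3 probe did not, as the values above show.

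Rgs10, a short R12 family protein of immune cells that acts on Gi alpha subunits, followed a different order of lines. Its probe (A_51_P218774, chromosome 7, 135517256 to 135517315, minus strand) read -0.14 and -0.17 in clone 18 and -0.24 and -0.30 in clone 41, against 0.53 and 0.09 in the IgM line and 1.36 and 0.90 in untransfected cells. The IgE arrays lay below all control arrays, with a difference of -0.93 ± 0.16 (SE), short of 2-fold. The difference from untransfected cells was -1.28 ± 0.23 in clone 18 and -1.40 ± 0.23 in clone 41. The IgM line stood between, 0.31 ± 0.31 on average (SD, n = 2), against 1.13 ± 0.32 in untransfected cells.

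Rgs14, the other R12 member, which carries Ras-binding sequences and a second site that binds Gi alpha, was lower in the IgE clones than in the IgM line. Its probe (A_51_P389957, chromosome 13, 55485762 to 55485821, plus strand) read 1.07 and 1.27 in clone 18 and 1.24 and 1.35 in clone 41, against 2.41 and 2.23 in the IgM line and 2.03 and 1.21 in untransfected cells. One untransfected array lay within the range of the IgE arrays, so the sides overlapped. The difference from the IgM line was -1.15 ± 0.28 in clone 18 and -1.02 ± 0.28 in clone 41, and from untransfected cells it was -0.45 ± 0.28 and -0.33 ± 0.28.

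Rgs19, also known as GAIP, an RZ family member that acts on Gi alpha subunits, was much the same in all 4 lines. Its 3 probes lie on chromosome 2 between 181423128 and 181423830. The brightest, A_55_P2078403, read 3.35 and 3.71 in clone 18 and 3.82 and 3.61 in clone 41, against 3.98 and 3.86 in the IgM line and 3.92 and 3.51 in untransfected cells. IgE minus control came to -0.19 ± 0.16, and with the other 2 probes to -0.17 ± 0.18 and -0.01 ± 0.20 (SE). The widest gap between lines with the brightest probe was that of clone 18 from the IgM line, -0.39 ± 0.22.

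Rgs1, which restrains chemokine responses of B cells, was not detected. Its probe (A_51_P260683, chromosome 1, 146091962 to 146092021) read -7.04 to -6.30 in the IgE lines and -7.19 to -7.00 in the control lines, and was not well above background on any of the 8 arrays. An array gives no lower limit for the transcript beyond that.

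The number of RGS genes that met the call rule in each pair of lines is given for completeness, and nothing is read from it, since the genes were chosen on these signals and the pairs share lines. Against untransfected cells it was 5 of 8 in clone 18 (Rgs13 and Rgs18 higher, Rgs2, Rgs10 and Rgs16 lower), beside 7.69% of all genes, and 3 of 8 in clone 41 (Rgs13 and Rgs18 higher, Rgs10 lower), beside 5.6%. Both counts came to 0 under some alternatives: in clone 18 without either of its own replicates, and in clone 41 without its replicate 1. Against the IgM line it was 5 of 8 in clone 18 (Rgs13 higher, Rgs2, Rgs14, Rgs16 and Rgs18 lower), beside 9.14%, and 3 of 8 in clone 41 (Rgs13 higher, Rgs2 and Rgs16 lower), beside 7.39%. Over the alternatives these counts ran from 2 to 6 in clone 18 and from 2 to 4 in clone 41. Between the IgM line and untransfected cells it was 1 (Rgs18, higher; 0 to 2 over the alternatives), beside 2.03%, and between clone 41 and clone 18 it was 0 by limma, beside 0.355%. A gene that met the rule in 1 clone and not in the other is not thereby different between them: Rgs2 differed from untransfected cells by -1.80 ± 0.37 in clone 18, which met it, and by -1.62 ± 0.37 in clone 41, which did not.

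**Figure D2:**
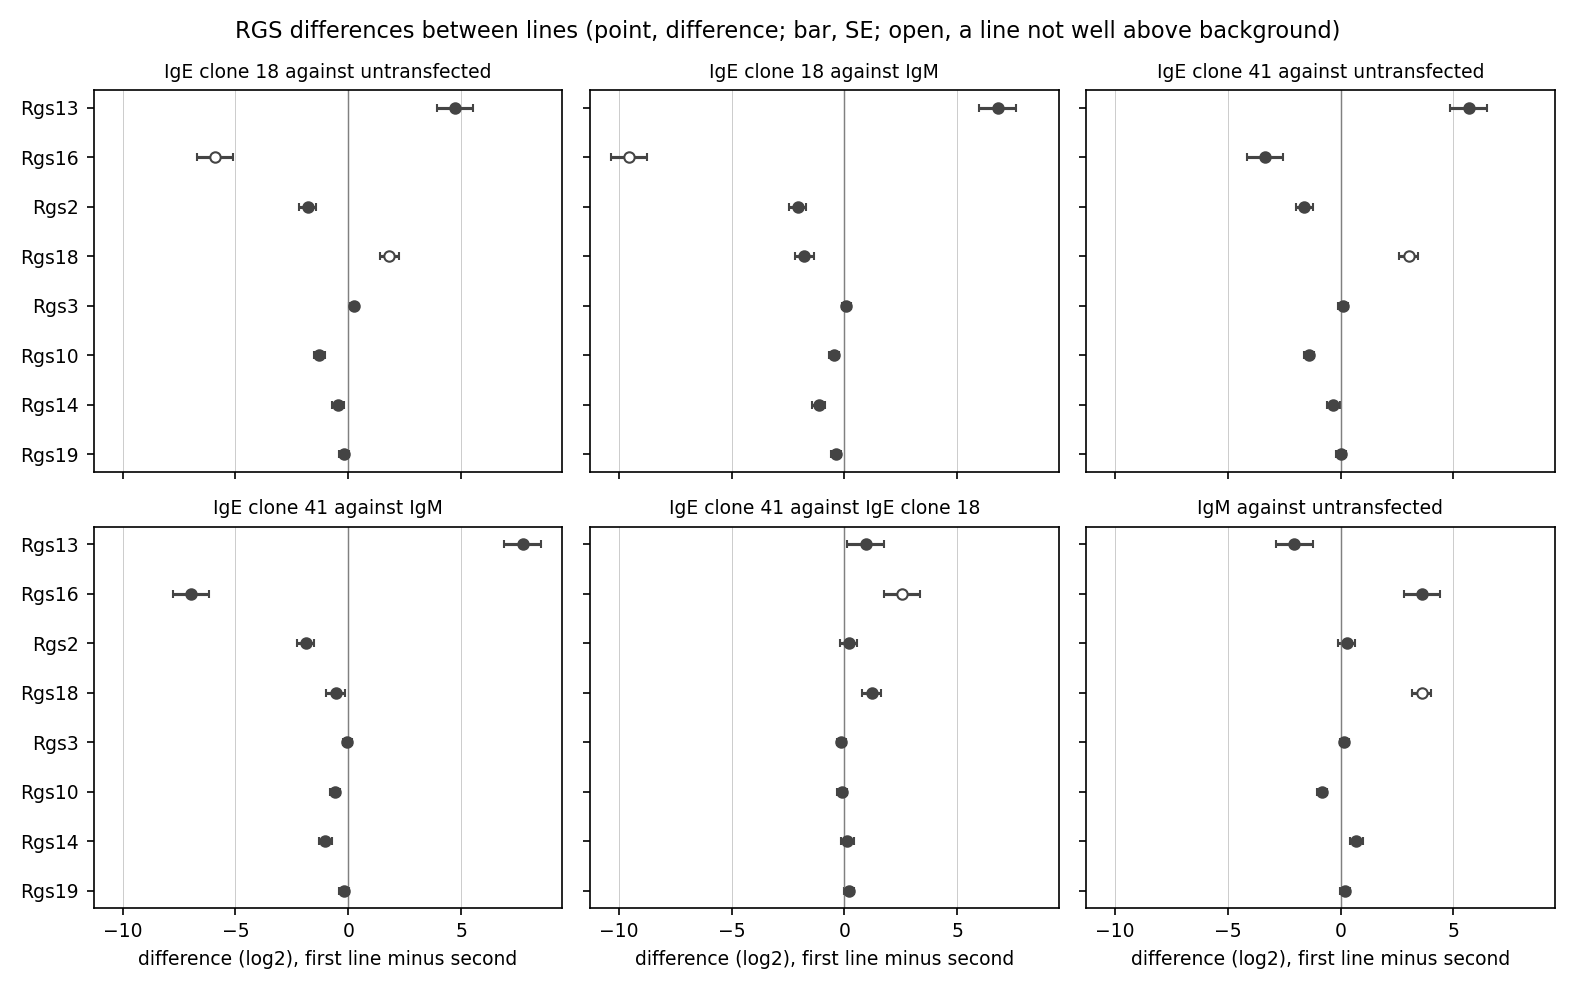
Differences between single lines (x axis, log2, the first line named minus the second) for the 8 RGS genes tested, each by its brightest probe, with SE bars and open points where neither array of 1 of the lines was well above background. Rgs13 stands between 4.74 and 7.74 in the 4 comparisons of an IgE clone with a control line, and Rgs16 between -9.54 and -3.36 as fitted; for open points the text gives bounds.

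The differences of clone 41 from clone 18 ran from -0.14 to 0.19 in Rgs2, Rgs3, Rgs10, Rgs14 and Rgs19, each by its brightest probe, and another Rgs3 probe, A_55_P2027102, gave 0.37 ± 0.24. They were larger in Rgs13 (0.94 ± 0.81), Rgs18 (1.21 ± 0.42) and Rgs16. In Rgs16 clone 41 was at least 1.47-fold above clone 18 on the processed signal. In these 3 genes clone 41 had the higher mean.

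The genes most like each RGS gene in profile were found by the smallest root mean square difference over the 8 arrays, after each profile was centred on its own mean, among 19951 genes. Profiles were not scaled, so distances tend to be larger for a gene with a wider span. Line means spanned 2.06 units in Rgs2 and 9.54 in Rgs16, and distances of different RGS genes are not compared. Closest to Rgs2 were Nos1, a neuronal nitric oxide synthase gene (0.14 log2 units), Gimap5, a GTPase of lymphocytes (0.17), and Gm12059 (0.20). All 3 were lower in untransfected replicate 2 than in replicate 1, as Rgs2 was. The closest to Rgs13 were Vat1 (0.83), 2810468N07Rik (0.86) and Xlr3a (0.92). Vat1 read 0.64 and 0.45 in clone 18 and -0.11 and -0.45 in clone 41, against -6.80 and -7.00 in the IgM line and -2.34 and -6.96 in untransfected cells, so its untransfected replicate 1 also stood above replicate 2.

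The closest to Rgs16 were Pabpn1l (1.02), Sytl3 (1.23), a synaptotagmin-like gene, and an unnamed probe, A_55_P1975843 (1.30). Sytl3 read -4.01 and -5.00 in clone 18 and -4.38 and -4.20 in clone 41, against 3.02 and 2.99 in the IgM line and 1.03 and 0.48 in untransfected cells. The closest to Rgs18 were Ttbk1 (0.45), Mup9 (0.48) and LOC100048884 (0.51). The closest to the third Rgs3 probe were Slc22a23 (0.40), 4930458A03Rik (0.40) and Fam171b (0.49). These likenesses describe 8 arrays of 4 lines.

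**Figure D3:**
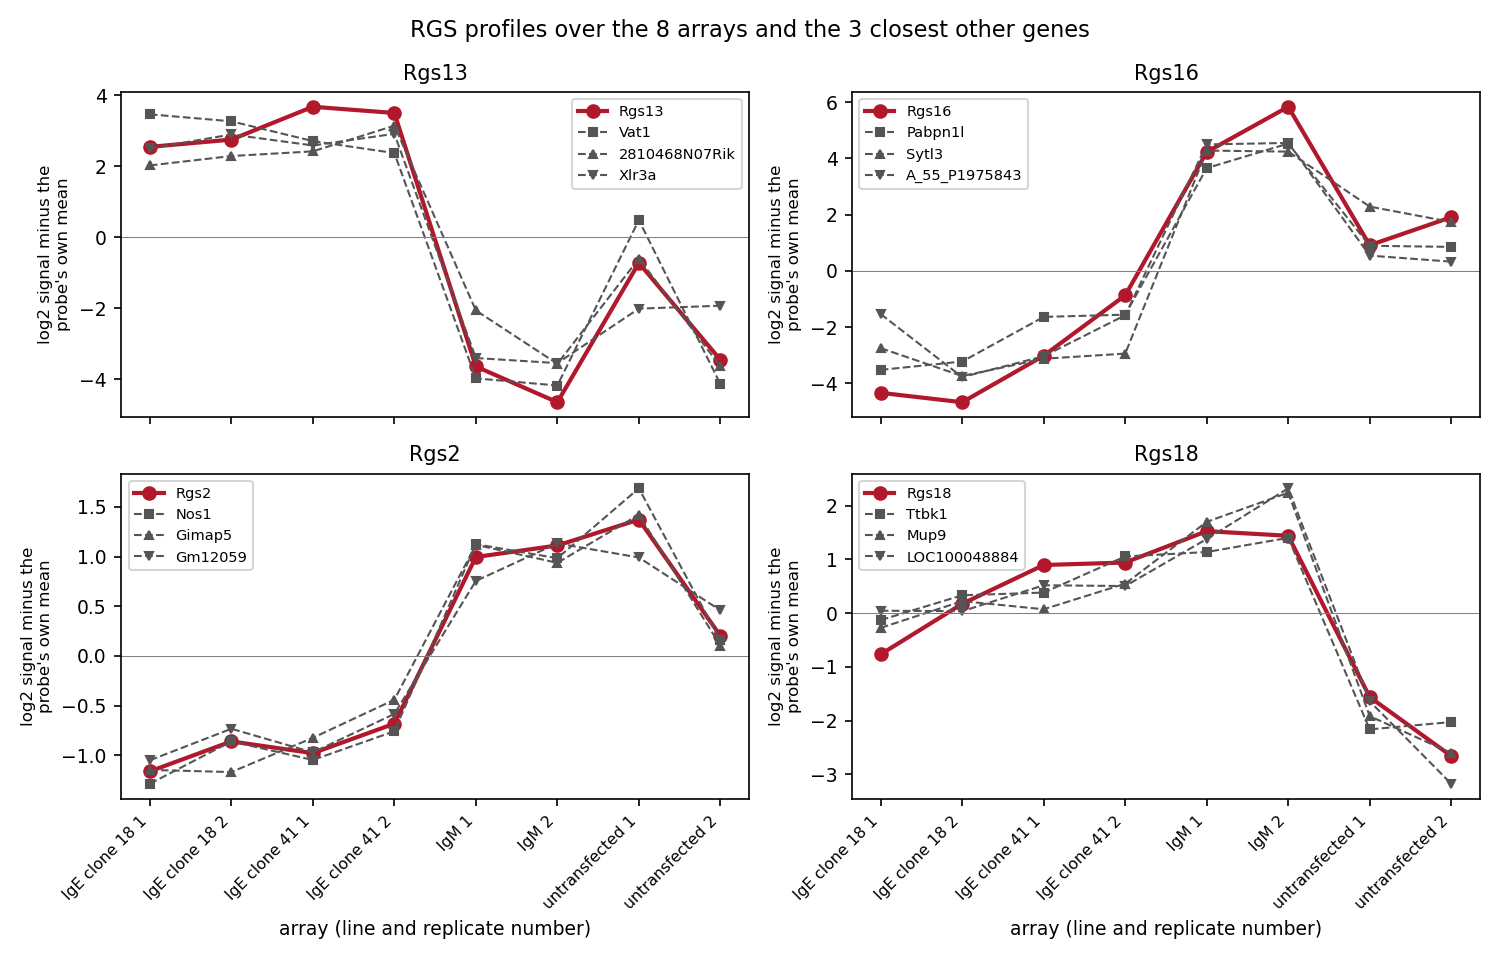
Profiles of Rgs13, Rgs16, Rgs2 and Rgs18 (red) and of the 3 genes closest to each (grey) over the 8 arrays (x axis), as log2 signal minus the probe's own mean; lines only join the points of a gene. Rgs2 and its 3 closest genes differ by 0.14 to 0.20 units and those of Rgs16 by 1.02 to 1.30. These distances are not scaled for the wider span of Rgs16.

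Other genes on the path from receptor to effector were taken from lists of family members and were tested over all genes. Of 21 other genes listed with the RGS family, which include the RGS-binding proteins Rgs7bp and Rgs9bp, 11 were tested. In the IgE lines 3 fell and none rose, a share of 27.3% beside 8.99% of all genes. They were Rgs8, Rgs9 and Rgs12 (limma, at the same thresholds, with 6 of 11 at an unadjusted p under 0.05). The median difference of the 11 was -0.10. Rgs9, an R7 family member known from photoreceptors and striatum, read 1.45 and 1.18 in clone 18 and 1.09 and 1.61 in clone 41, against 3.56 and 3.29 in the IgM line and 2.17 and 1.84 in untransfected cells. The sides did not overlap, with a difference of -1.38 ± 0.17 (SE, limma adjusted p = 0.00305). Its 3 other probes were lower too, 1 of them past both thresholds.

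Rgs12, a large R12 family protein, read -0.90 and -1.40 in clone 18 and -1.31 and -1.47 in clone 41, against 1.76 and 1.47 in the IgM line and -0.67 and 0.36 in untransfected cells. The difference was -2.00 ± 0.25 (SE, adjusted p = 0.00305), and its 2 other probes gave -1.80 ± 0.28 and -2.28 ± 0.27. Against the IgM line alone Rgs12 was 6.80-fold lower in clone 18 and 8.03-fold lower in clone 41 (adjusted p = 0.00472 and 0.00405), and neither clone was called against untransfected cells. Rgs9 likewise differed from the IgM line in both clones and was called from untransfected cells in neither. It was 2.67-fold higher in the IgM line than in untransfected cells (adjusted p = 0.0431). Rgs11 was called once, 3.81-fold higher in clone 18 than in the IgM line (adjusted p = 0.0393).

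Rgs8, an R4 gene 47.5 kb from Rgs16, was lower in the IgE lines (fitted difference -2.68 ± 0.59, SE, adjusted p = 0.0246), with 2 of the 4 IgE arrays above background. It read -6.25 and -6.18 in clone 18, neither above background, and -4.16 and -1.83 in clone 41, against -1.57 and -0.01 in the IgM line and -3.56 and -2.57 in untransfected cells. Clone 41 and the control lines overlapped. A second Rgs8 probe gave a difference of -1.84 ± 0.59 (SE) and was not called. Rgs8 lost its call in 8 of 17 alternatives, where adjusted p ran from 0.00751 to 0.145 over all 17. In clone 18 it was at least 15.5-fold lower than in the IgM line (adjusted p = 0.00927). As in Rgs16, the IgM line had the highest signal and clone 41 replicate 2 stood above replicate 1.

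Among the G protein subunits, on which RGS proteins and receptors act, none of 11 G alpha genes tested was called by limma, beside 8.99% of all genes. With no fold threshold 3 were called, 3 had an unadjusted p under 0.05, and their median difference was 0.01. Gnai2, the main Gi alpha gene of lymphocytes, read 6.10 and 6.26 in clone 18 and 6.21 and 5.87 in clone 41, against 6.27 and 6.08 in the IgM line and 6.12 and 5.95 in untransfected cells, a difference of 0.01 ± 0.13 (SE). Gna13, the alpha subunit through which S1pr2 signals in germinal centre B cells, was lower by a difference of -0.96 ± 0.12 (adjusted p = 0.00319), short of 2-fold, with the 4 IgE arrays (4.25 to 4.68) below the 4 control arrays (5.15 to 5.63). In clone 18 it was 2.40-fold lower than in the IgM line (adjusted p = 0.00606).

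Of 14 beta and gamma genes tested, 1 rose and none fell, a share of 7.14% near the 8.99% of all genes. This was Gng3, a gamma subunit known from neurons, which read 3.27 and 3.33 in clone 18 and 1.49 and 1.91 in clone 41, against -5.06 and -4.88 in the IgM line and 1.05 and 0.14 in untransfected cells (fitted difference 4.69 ± 0.22, SE, adjusted p = 4.8e-05). The IgM line was not above background, so this difference is not an exact size, and the mean of the control lines hides a gap between them. Clone 18 was 6.53-fold above untransfected cells (adjusted p = 0.00383), clone 41 was not called against them, and both were at least 91.7-fold above the IgM line. The IgM line was at least 42.7-fold below untransfected cells (adjusted p = 0.000872). Gng12 was called once, 2.12-fold higher in clone 18 than in the IgM line (adjusted p = 0.0433). The call of Gng3 was lost when line was fitted as a random effect (adjusted p = 0.0626), and the list's count was then 0, as it was with probes above background on all 8 arrays. It was 3 without untransfected replicate 1, and 2 without untransfected replicate 2 or without clone 41 replicate 2.

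G protein-coupled receptors of B cells, listed whichever G protein they couple to, changed in both directions. Of 32 on the array 19 were tested, 4 rose and 5 fell in the IgE lines, against 3.4% and 5.59% of all genes, and their median difference was -0.12. Cxcr5, the receptor that draws B cells to follicles, read 0.01 and 0.33 in clone 18 and 1.20 and 0.93 in clone 41, against 4.38 and 4.30 in the IgM line and 5.44 and 2.70 in untransfected cells (difference -3.58 ± 0.55, SE, adjusted p = 0.00637). S1pr1, the egress receptor for sphingosine 1-phosphate, fell 4.52-fold (adjusted p = 0.00944). Gpr174, a lysophosphatidylserine receptor, fell 4.51-fold (adjusted p = 0.000401), and a second probe gave -1.91 ± 0.21 (SE).

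Lpar5 and Lpar6, receptors for lysophosphatidic acid, rose. Lpar5 read -2.89 and -2.74 in clone 18 and -2.61 and -3.12 in clone 41 and was above background on no control array, at least 3.95-fold higher (adjusted p = 0.000145). Lpar6 rose 2.95-fold (adjusted p = 0.00335). Cxcr3, a chemokine receptor of activated lymphocytes, was also above background on no control array and was at least 1.46-fold higher (adjusted p = 0.00236). Ccr6, another chemokine receptor, rose 4.05-fold (adjusted p = 0.0267) from low signals, and its call was lost in 8 of 17 alternatives (adjusted p 0.00562 to 0.095).

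Gpr132 fell 8.53-fold and Gpr18 4.84-fold against the mean of both control lines (adjusted p = 0.0013 and 0.00299), although the IgM line lay close to the IgE clones. Both calls were lost when line was fitted as a random effect (adjusted p = 0.141 and 0.158), and Gpr18 was above background on 1 of the 4 IgE arrays. Gpr132 read -2.91 and -2.86 in clone 18 and -3.35 and -2.79 in clone 41, against -3.12 and -1.68 in the IgM line and 2.65 and 2.61 in untransfected cells. It was 32.7-fold lower in the IgM line than in untransfected cells (adjusted p = 0.00344), and Gpr18 was 14.1-fold lower (adjusted p = 0.00621). Neither was called between a clone and the IgM line. Adora2b was called once, 2.60-fold higher in clone 18 than in untransfected cells (adjusted p = 0.0347).

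**Figure D4:**
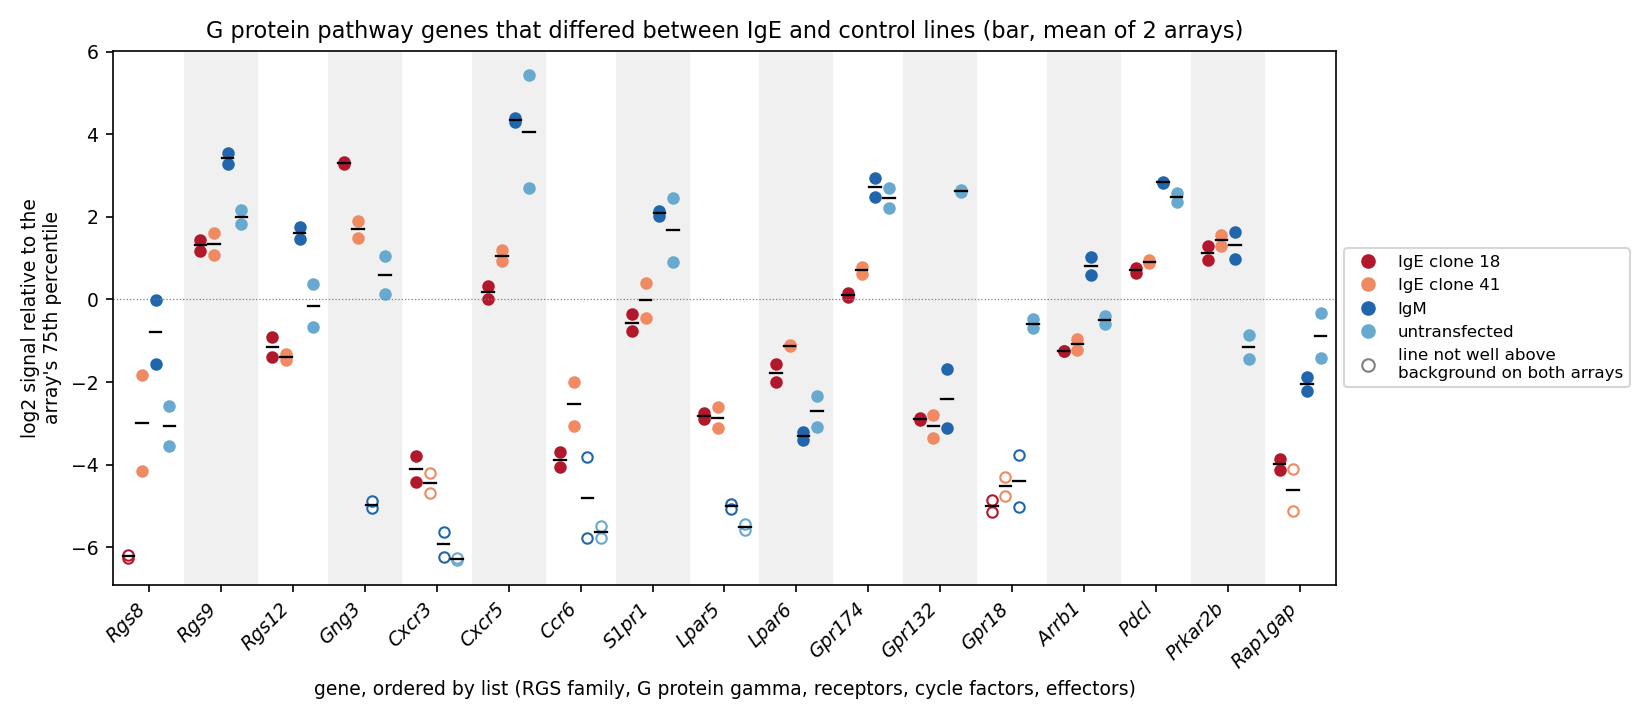
Log2 signal, relative to the array's 75th percentile, of the 17 genes of the pathway lists that differed between IgE and control lines (x axis, by list), on each of the 8 arrays (points) with line means (bars). Open points mark a line with fewer than 2 arrays well above background. Gpr132 is high in untransfected cells alone (2.61 and 2.65), and Gng3 low in the IgM line alone (-5.06 and -4.88).

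Among 17 receptor kinases, arrestins and factors of the G protein cycle, 2 fell and none rose, a share of 11.8% beside 8.99% of all genes. Arrb1, which encodes beta-arrestin 1 and uncouples receptors from G proteins, fell 2.51-fold (-1.33 ± 0.15, SE, adjusted p = 0.00174). Pdcl, a phosducin-like chaperone of beta gamma dimers, fell 3.59-fold (-1.84 ± 0.11, SE, adjusted p = 0.000148), and a second probe gave -2.07 ± 0.17. Arrb1 was lower than in the IgM line in both clones and was not called against untransfected cells, whereas Pdcl was called in both clones against both controls.

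Of 28 effector genes tested, 1 rose and 1 fell, a share of 7.14% beside 8.99% of all genes. Prkar2b, a regulatory subunit of protein kinase A, rose 2.31-fold (adjusted p = 0.0116), and Rap1gap, which turns off the GTPase Rap1, fell 7.19-fold (adjusted p = 0.00188). Other tested Prkar2b probes gave 0.79 ± 0.18 and 1.03 ± 0.28 (SE), and neither was called. The call of Prkar2b was lost when line was fitted as a random effect (adjusted p = 0.244) and without clone 18 replicate 2. Prkar2b was higher than in untransfected cells in the IgM line too, by 5.53-fold (adjusted p = 0.0114). Rap1gap was lower in both clones against both controls. Pde4b, a cyclic AMP phosphodiesterase, was called in clone 18 alone, 2.15-fold lower than in untransfected cells and 2.12-fold lower than in the IgM line (adjusted p = 0.00999 and 0.00909). Adcy4 was 2.51-fold lower in clone 41 than in the IgM line (adjusted p = 0.0213), and Pik3cg 3.16-fold higher in the IgM line than in untransfected cells (adjusted p = 0.0205). The effector count was 4 without untransfected replicate 2 and 1 without clone 18 replicate 2.

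The genes within 1 Mb of an RGS probe did not move as blocks with the RGS genes. Of 189 neighbours tested, 4 rose and 6 fell in the IgE lines (5.29%, against 8.99% of all genes). In the cluster of Rgs2, Rgs13, Rgs1 and Rgs18, 5 neighbours were tested and none was called by limma, with 3 at an unadjusted p under 0.05. The nearest of them to the RGS genes, Uchl5, 193 kb from the Rgs2 probe, differed by -0.46 ± 0.16 (SE, adjusted p = 0.0859). Trove2 differed most, by 0.89 ± 0.13 (adjusted p = 0.0049), short of 2-fold. Around Rgs16, 12 neighbours were tested and 1 was called, Rgs8, lower as above. Their median difference was -0.49.

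Around Rgs19, Lime1, an adaptor of lymphocyte signalling 305 kb away, fell 3.51-fold (adjusted p = 0.000158), and Col20a1, a collagen gene, fell 3.90-fold (adjusted p = 0.0137). Around Rgs14, Dok3, an inhibitory adaptor of B cell receptor signalling 139 kb away, fell 2.35-fold (adjusted p = 0.0206), Tspan17 fell 2.25-fold (adjusted p = 0.0284), and Gm10782 was above background in no IgE array (adjusted p = 0.00672). Around Rgs3, Rnf183 was 2.88-fold higher than the mean of both control lines (adjusted p = 0.00367), but only the IgM line was low. Its mean was -0.08 in clone 18 and -0.44 in clone 41, against -3.59 in the IgM line and 0.02 in untransfected cells. The IgM line was 12.2-fold below untransfected cells (adjusted p = 0.00229), and neither clone was called against untransfected cells. The probes NAP071120-1 and A_55_P2001068 rose 2.97-fold and 2.60-fold (adjusted p = 0.00837 and 0.0109). Around Rgs10, Inpp5f, an inositol phosphatase gene 296 kb away, was 2.03-fold above the mean of both control lines (adjusted p = 0.00397). Here too only the IgM line was low. Inpp5f averaged 0.49 in clone 18 and 0.45 in clone 41, against -1.37 in the IgM line and 0.27 in untransfected cells. The IgM line was 3.12-fold below untransfected cells (adjusted p = 0.00952), and neither clone was called against untransfected cells. Against these 10 called neighbours, the count was 16 without untransfected replicate 1 and 6 without clone 18 replicate 1.

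**Figure D5:**
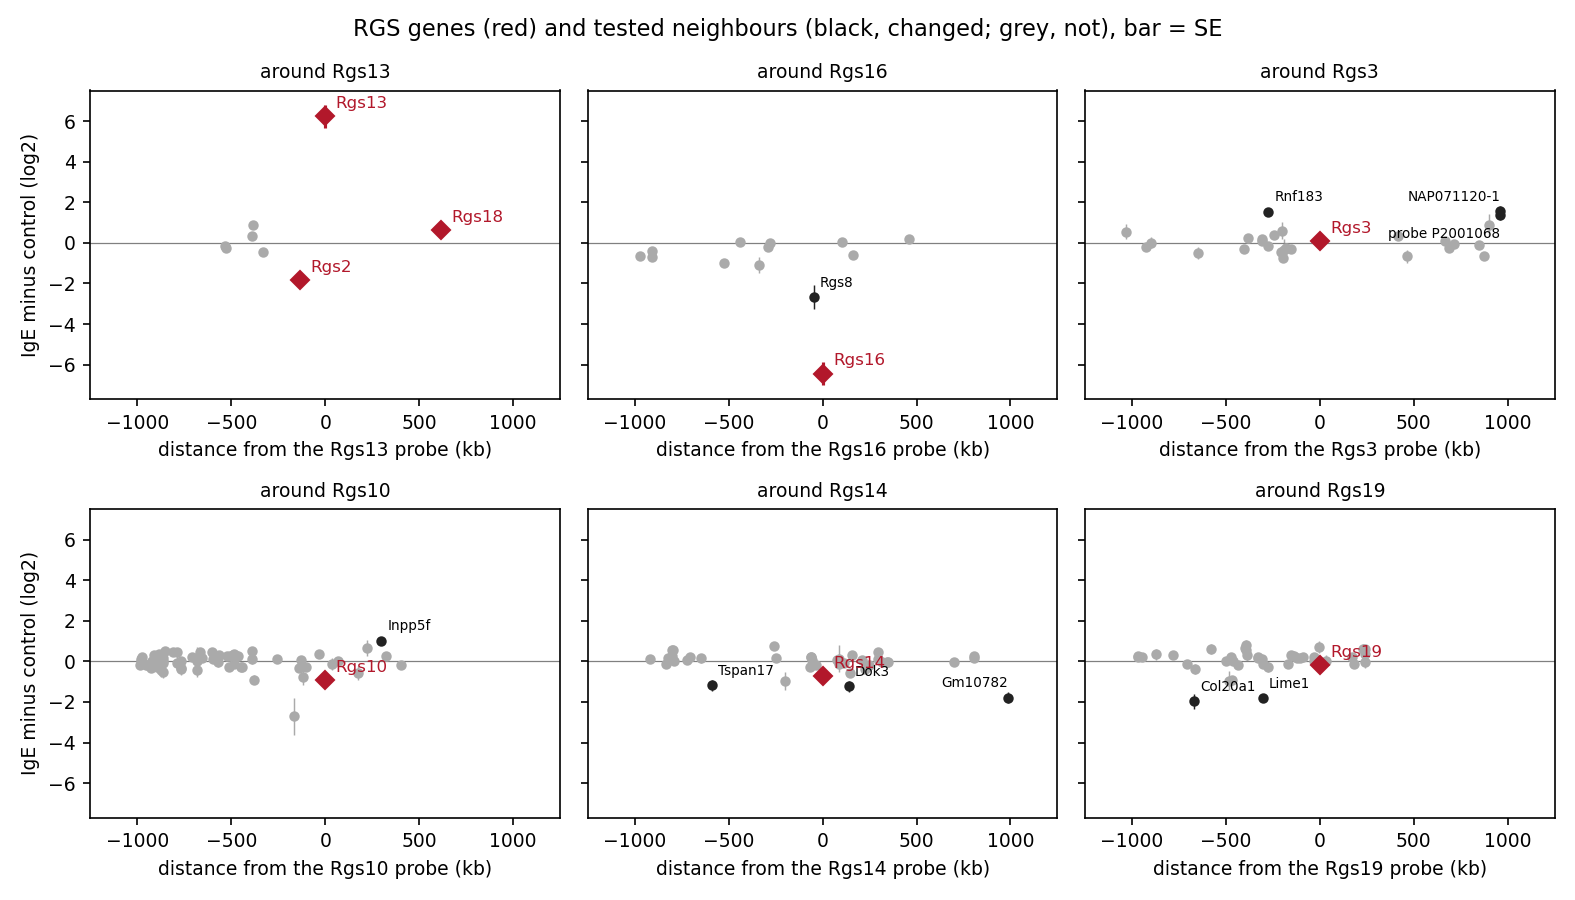
Difference of the IgE lines from the control lines (y axis, log2, SE bars) against distance from an RGS probe (x axis, kb) for RGS genes (red) and their tested neighbours (black where called, grey where not). Rgs13 at 6.24 and Rgs2 at -1.84 lie 137 kb apart with no called neighbour in the window, and Rgs8 at -2.68 lies beside Rgs16 at -6.45.

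Markers of other cells in which RGS genes are known were also read. Of 10 mast cell and basophil markers, 6 (Mcpt4, Mcpt8, Tpsab1, Cma1, Fcer1a and Hdc) were above background on no array, and the list summed to 0.218 to 0.331 in the IgE lines and 0.223 to 0.397 in the control lines. Of the 10 germinal centre markers, which stand beside Rgs13, Basp1 rose 15.5-fold and Mybl1 3.38-fold while Fas fell 2.05-fold (adjusted p = 5.1e-05, 0.00668 and 0.0105), and the list's median difference was 0.26. The list summed to 229 to 260 in the IgE lines and 205 to 246 in the control lines. Of 6 T cell markers tested, Cd3g was lower (adjusted p = 0.000893) with no IgE array above background, and the list summed to 16.7 to 20.3 in the IgE lines and 10.7 to 16.1 in the control lines. Of 6 myeloid markers tested, Emr1 fell 21.2-fold and Cd68 rose 3.20-fold (adjusted p = 0.000572 and 0.000906), and the list summed to 49.0 to 71.0 in the IgE lines and 45.6 to 58.7 in the control lines. The part of any of these in the RGS differences was not tested.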

How the data were processed

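Expression was read from 8 one-colour Agilent arrays of design 028005 (1 slide, 1 scan), 2 for each of 4 lines, grouped by sample title. Lines filled the slide's columns and replicate numbers its rows, so position and line cannot be told apart. Per the file headers, spots were read with Feature Extraction 10.7.3.1, and the deposited processed intensity is background-subtracted; positions are mm9, as deposited. The authors also deposited log2 values, which rank each array's probes as the median spot signal does (Spearman 1); their normalization is not given in the sources used here, and they served as an alternative.

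From each log2 processed intensity the array's 75th percentile was subtracted. Outlier spots were left out and repeated spots averaged. The filter kept 29140 of 55681 probes. A gene's brightest probe stood for it (19973 genes). limma 3.58.1 (R 4.3.3) fitted a mean for every line (4 residual and 2.66 prior degrees of freedom; two-sided; Benjamini-Hochberg adjustment over all genes). RGS differences come from that model over all probes. Bounds for lines below background used the lowest signal well above background on each array (-4.90 to -4.63) and hold only for the processed intensity. The fit was tested on simulated data. No 2 arrays held identical values. The number of arrays limits the precision.

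RGS genes, lists and tests were chosen with earlier results of these data known. Named were all RGS genes; of each list, up to 4 genes per direction called between IgE and control lines and up to 2 per direction called elsewhere; the 3 genes closest in profile to each RGS probe whose line means span at least 2 units; up to 10 called neighbours; and called markers, of which 1 is not reported here. Gpr174, Gnai2 and Uchl5 fall outside this rule and were chosen after their values were seen. Alternatives covered scaling, background, filters, the deposited log2 values, single probes, the call rule, arrays left out, and blocks by replicate number or line.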

Additional observations from a re-analysis of the deposited data

How the results depend on the processing

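For the RGS probes, and for the pathway list genes called between IgE and control lines, no called difference changed direction under the alternatives run. Direction was not followed for other genes. The 1795 genes called between IgE and control lines were 1391 to 2169 with 1 array left out, 1034 with normexp background correction, 1085 with probes above background on all 8 arrays, 1124 with the authors' deposited log2 table and 3562 with no fold threshold. With normexp, clone 41 against clone 18 gave 42. With no filter on dim probes, clone 18 gave 848 against untransfected cells and 1178 against IgM, clone 41 gave 596 and 944, IgM against untransfected cells gave 229, and clone 41 against clone 18 gave 31. With all 8 arrays above background, clone 18 and clone 41 against IgM gave 1215 and 963, IgM against untransfected cells 188, and clone 41 against clone 18 gave 15; fewer genes were tested. With the deposited table these comparisons gave 961 (clone 18) and 669 (clone 41) against untransfected cells, 1119 and 900 against IgM, 159 for IgM against untransfected cells and 18 between clones.

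Leaving out 1 array moved clone 18 against untransfected cells from 580 (without clone 18 replicate 1) to 2539 (without untransfected replicate 1), clone 18 against IgM between 795 and 2227, clone 41 against untransfected cells between 469 (without clone 41 replicate 1) and 2120, clone 41 against IgM between 720 and 1916, IgM against untransfected cells between 248 and 882, and clone 41 against clone 18 between 30 and 106. All these highest counts came without untransfected replicate 1.

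RGS genes called between IgE and control lines were 3 to 4 with 1 array left out, 2 with all 8 arrays above background and 5 with no fold threshold. G alpha genes numbered 0 to 1 with 1 array left out, 1 under quantile scaling, normexp, the deposited table and single probes, and 3 with no fold threshold. Beta and gamma genes numbered 1 to 3, 0 with all 8 arrays above background, 0 with the line as a random block and 3 with no fold threshold. Receptors numbered 5 with all 8 arrays above background. Effectors numbered 1 to 4, 1 with all 8 arrays above background or the random block, and 6 with no fold threshold. Neighbours numbered 6 to 16, 6 with no filter, 5 with the deposited table or the random block, and 25 with no fold threshold. Under the random block, the calls of Gng3, Gpr132, Gpr18 and Prkar2b were lost (adjusted p = 0.0626, 0.141, 0.158 and 0.244), as were those of Rgs8 and Ccr6. Gpr18 and Cxcr3 were also lost with normexp, Cxcr3 with the deposited table, and Prkar2b without clone 18 replicate 2. The cause was not tested.

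The labels share only replicate numbers across lines, and same-numbered arrays deviated together weakly (correlations -0.02 to 0.32). With the replicate number as a block, 1843 genes were called between IgE and control lines, and 3 RGS genes. Signal over background limits the sizes given for Rgs16, Rgs18 and the third Rgs3 probe, and leaves Rgs1 with no value.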
